A study of Homo sapiens with 6 samples.

Results

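ANKRD37, UFSP2, LOC100420062 and AP2B1 are 4 genes whose reads are hard to assign, because their listed positions overlap: ANKRD37 with UFSP2 on chromosome 4, and LOC100420062 with AP2B1 on chromosome 17. They were taken by name from the 44591 genes listed for RNA sequencing of A2780 cells, a human ovarian cancer cell line of WT genotype, after ANKRD37 and LOC100420062 had been seen among the genes with the largest rises. The study asked what the protein CRMP2 does to such cells, and compared 3 untreated with 3 treated replicates. The treated cells received r-CRMP2, a human recombinant form of CRMP2, at 40 ng/ml for 48 h in the culture medium, and both groups grew in DMEM with serum for 48 h. The labels do not say whether the replicates were separate cultures, so that p-values measure only the spread between these samples. Since the 4 genes were chosen on this contrast, their own values are given as a description, with no test.

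ANKRD37 encodes a small protein with ankyrin repeats, and its gene is a known target of the hypoxia-inducible factor HIF-1. UFSP2 is a protease that matures the ubiquitin-like protein UFM1 and removes it from its substrates. AP2B1 is the beta subunit of AP-2, the adaptor complex that links clathrin to cargo at the plasma membrane. LOC100420062 is listed as a pseudogene, a gene copy that is not expected to make a protein. An RNA library that does not mark strand cannot tell a read of a gene from a read of its neighbour on the opposite strand wherever both are transcribed, and the kit named in the study's methods is of that kind. How reads falling on both genes were counted is not given in the sources used here.

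On the hg19 build of the deposited positions, ANKRD37 spanned chr4:186317840-186321399 on the plus strand and UFSP2 spanned chr4:186320694-186347139 on the minus strand. These genes ran towards each other, and the last 706 bases of both spans were shared. AP2B1 spanned chr17:33914282-34053436 on the plus strand, and LOC100420062 lay wholly inside it on the minus strand, at chr17:33923539-33924149, so that all 611 bases of the pseudogene were shared. The lengths deposited for the 4 genes, in that order, were 943 bases for ANKRD37, 2482 for UFSP2, 5763 for AP2B1 and 611 for LOC100420062.

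**Figure D1:**
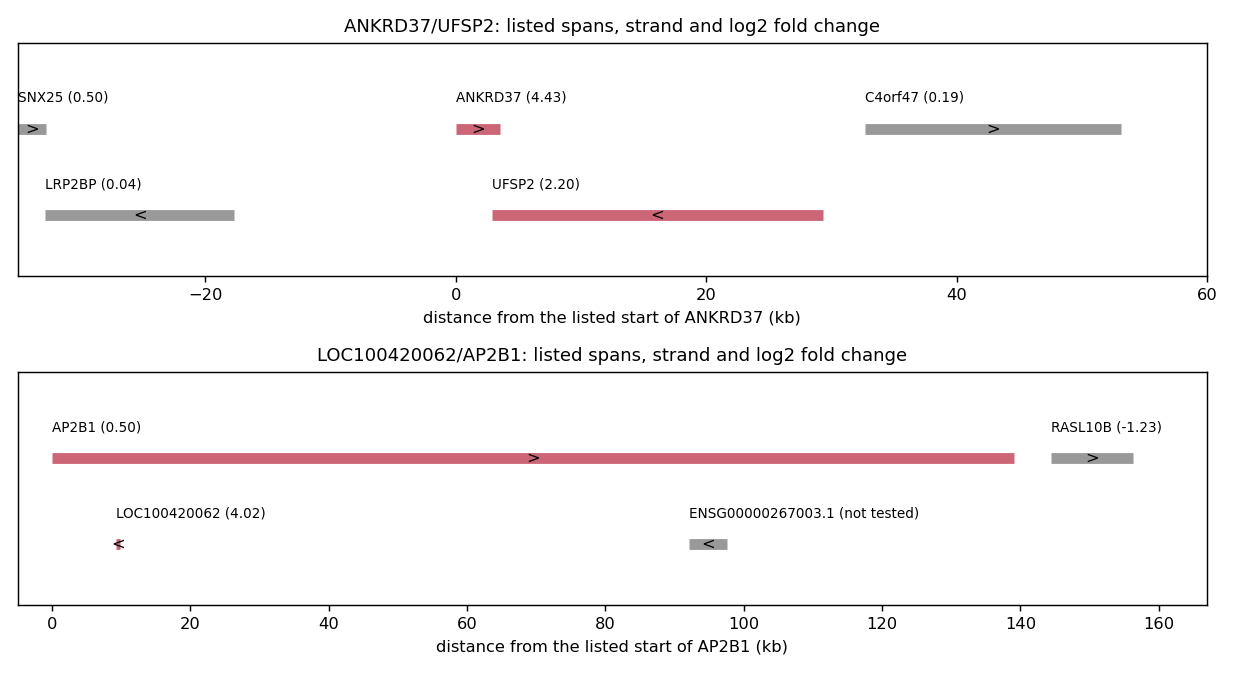
Listed spans of both gene pairs (red) and genes near or inside them (grey) against distance in kb from the listed start of ANKRD37 (top) and AP2B1 (bottom), with arrowheads for strand and log2 fold changes in brackets. SNX25 runs past the left edge. ANKRD37 and UFSP2 meet end to end over 706 bases, and the 611 bases of LOC100420062 lie inside AP2B1.

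The reference annotation (GENCODE, GRCh38) showed which transcripts of the first pair share exons. Exons of ANKRD37 covered 2580 bases and those of UFSP2 covered 2781, of which 909 bases were common (35.2% of the former and 32.7% of the latter). The coding transcript ANKRD37-201, of 1141 bases, shared no base with the coding transcript UFSP2-201. It shared 429 bases (37.6%) with UFSP2-209, a transcript annotated for nonsense-mediated decay. A retained-intron transcript, ANKRD37-206, shared 190 bases with UFSP2-201. In all, 3 of 6 ANKRD37 transcripts and 5 of 9 UFSP2 transcripts shared exonic bases with the other gene.

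The same annotation placed LOC100420062 in an intron. Its RefSeq span on GRCh38 (chr17:35596533-35597130, 598 bases) overlapped 0 exons of the 22 annotated AP2B1 transcripts. The nearest AP2B1 exons began 2465 bases upstream and 1099 bases downstream. Inside that span GENCODE lists a processed pseudogene of 225 bases, AC004134.1, at chr17:35596904-35597128 on the minus strand. A processed pseudogene is a copy made from a spliced RNA, and this stretch aligned to the coding part of TMEM160, a gene for a mitochondrial inner membrane protein on chromosome 19 (chr19:47045907-47048630, minus strand, GRCh38). Of 225 aligned columns, 203 were identical (90.2%), 20 were mismatches and 2 were gaps, and the match ran from base 62 to base 284 of the transcript TMEM160-201. Both sequences are shown because they bear on which reads can be told apart, with the bases that differ in capitals.
pseudogene inside LOC100420062: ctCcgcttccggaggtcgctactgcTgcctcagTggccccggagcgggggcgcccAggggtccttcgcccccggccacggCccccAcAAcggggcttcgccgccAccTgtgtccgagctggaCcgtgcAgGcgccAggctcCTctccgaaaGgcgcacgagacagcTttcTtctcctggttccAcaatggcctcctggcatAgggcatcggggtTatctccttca
TMEM160-201: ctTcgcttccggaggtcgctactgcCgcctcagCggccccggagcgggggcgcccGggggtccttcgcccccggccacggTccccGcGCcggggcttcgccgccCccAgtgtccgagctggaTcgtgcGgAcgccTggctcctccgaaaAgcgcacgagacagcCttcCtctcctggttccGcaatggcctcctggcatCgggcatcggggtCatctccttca

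The promoters of the 3 coding genes differed in the core letters of the HIF-1 binding motif. The letters ACGTG and GCGTG were searched on both strands in the 250 bases before each RefSeq start (GRCh38.p14). ANKRD37 held 3 matches, of which a pair overlap in the palindrome CACGTG, and 7.76% of the 35116 promoters searched held at least 3. UFSP2 and AP2B1 each held 1, and 43.2% of all promoters held at least 1. The 30 bases with these matches, in capitals, are shown for the coding genes. A match is a description of letters and not of a bound site.
ANKRD37 (chr4:185396676-185396705, plus): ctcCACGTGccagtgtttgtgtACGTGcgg
UFSP2 (chr4:185426168-185426197, minus): aatccattccaagCACGCtgtgggaggata
AP2B1 (chr17:35587229-35587258, plus): accccgatgacgtCACGCggcgacgttctc

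Libraries held 21888530 to 25711353 counts, and no replicate pair agreed within sampling noise. Levels are given as CPM, read counts scaled to the library's total after TMM scaling, which corrects for the share of counts taken by the most abundant genes. TMM factors ran from 1.10 to 1.12 in untreated and from 0.878 to 0.922 in r-CRMP2 libraries, so that scaling by library size alone moved the median log2 fold change of all genes from -0.03 to -0.34. Each log2 fold change below is of r-CRMP2 over untreated and was fitted with edgeR. Of 10 ovarian and epithelial markers, KRT8, KRT18, KRT7 and MSLN were abundant (means of at least 244.9 CPM in both groups). MUC16 had means of 42.7 CPM untreated and 33.2 CPM treated. EPCAM (4.4 and 5.5 CPM), PAX8 (4.1 and 3.7 CPM) and KRT19 (1.4 and 1.5 CPM) were low in both groups. CDH1 and WT1 had at most 5 and 3 counts in any library. Of the 8 tested, 2 were higher and 2 lower with r-CRMP2 at an adjusted p under 0.05. Of 12 markers of other cell types, 9 were tested and 3 were higher and 3 lower with r-CRMP2 at an adjusted p under 0.05 (33.3% each, near the 28.2% and 30.1% of all genes tested). Their summed level was 509.9 to 575.5 CPM untreated and 480.9 to 494.9 CPM treated, and without the collagen gene COL1A1 it was 107.0 to 117.9 and 163.4 to 184.6 CPM. Among these, the macrophage marker CD68 rose from 23.1 to 74.3 CPM and the endothelial marker CDH5 fell from 5.29 to 1.35 CPM, whereas the leukocyte marker PTPRC had at most 4 counts. Their part in the values below was not tested. In such bulk RNA, more cells that express a gene and more RNA per cell cannot be told apart.

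ANKRD37 was low in untreated cells and high after r-CRMP2. Its counts were 131, 96 and 88 in untreated replicates 1 to 3, and 1445, 2035 and 1966 in the r-CRMP2 replicates. In CPM these were 4.71, 3.91 and 3.22 against 67.6, 102.9 and 85.6. The groups did not overlap, and the lowest treated library lay far above the highest untreated one. The mean was 3.95 ± 0.747 CPM untreated and 85.4 ± 17.6 CPM treated (SD, n = 3 each), a log2 fold change of 4.43 (SE 0.23), which ranked 8 among the 16222 genes tested.

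UFSP2 was higher in each r-CRMP2 library than in any untreated library. Its counts were 274, 188 and 222 untreated and 665, 963 and 879 treated, or 9.85, 7.66 and 8.12 CPM against 31.1, 48.7 and 38.3 CPM. The mean was 8.54 ± 1.16 CPM untreated and 39.4 ± 8.83 CPM treated (SD, n = 3 each), a log2 fold change of 2.20 (SE 0.22, rank 138). Among treated libraries both UFSP2 and ANKRD37 were lowest in replicate 1 and highest in replicate 2. Among untreated libraries both were highest in replicate 1, but ANKRD37 was lowest in replicate 3 and UFSP2 in replicate 2.

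LOC100420062 was near the limit of counting in untreated cells. Its counts were 12, 2 and 7, with exact 95% Poisson intervals, which cover counting error only, of 6.20 to 21.0, 0.242 to 7.22 and 2.81 to 14.4. The treated counts were 72, 91 and 116, and the lowest of their intervals ran from 56.3 to 90.7. The mean was 0.256 ± 0.175 CPM untreated and 4.34 ± 0.870 CPM treated (SD, n = 3 each), a log2 fold change of 4.02 (SE 0.51, rank 14). The low-count filter kept this gene through its treated libraries.

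AP2B1 was abundant in all libraries and moved least. Its counts were 12316, 11219 and 12255 untreated and 13190, 12650 and 14929 treated, or 442.8, 457.2 and 448.0 CPM against 617.4, 639.5 and 650.0 CPM. The groups did not overlap. The mean was 449.3 ± 7.27 CPM untreated and 635.6 ± 16.6 CPM treated (SD, n = 3 each), a log2 fold change of 0.50 (SE 0.03, rank 2679). By library size alone it was 0.19, so its size depends on the scaling.

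**Figure D2:**
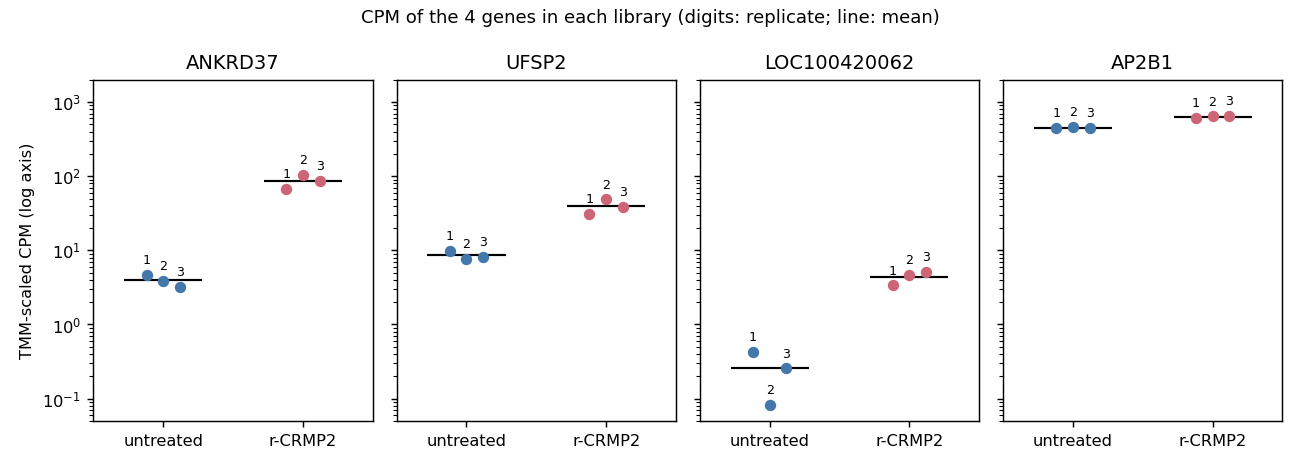
TMM-scaled CPM on a log axis for the 4 genes in 3 untreated (blue) and 3 r-CRMP2 (red) libraries, with digits for replicates and lines for means. In each gene all treated points lie above all untreated points, by far for ANKRD37 (3.95 to 85.4 CPM on average) and least for AP2B1 (449.3 to 635.6 CPM).

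In all 4 genes each treated library was above each untreated one, as was true of 30.9% of all genes tested. Genes with an adjusted p under 0.05 (Benjamini-Hochberg) and a log2 fold change over 1 made up 5.12% of those tested, and ANKRD37, UFSP2 and LOC100420062 were among them while AP2B1 was not. Nothing is read from these counts, since this contrast chose the genes. All 4 passed the low-count filter.

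Compared per length, as TPM, the mean levels of the genes had the same order in both groups. In untreated cells AP2B1 was highest at 190.0 ± 5.80 TPM, ANKRD37 and UFSP2 followed at 10.2 ± 1.81 and 8.38 ± 1.003 TPM, and LOC100420062 was lowest at 1.01 ± 0.682 TPM (SD, n = 3 each). The ranges of ANKRD37 (8.34 to 11.97 TPM) and UFSP2 (7.62 to 9.51 TPM) overlapped. After r-CRMP2 the order was AP2B1 (214.4 ± 8.49 TPM), ANKRD37 (175.0 ± 28.3 TPM), UFSP2 (30.6 ± 5.43 TPM) and LOC100420062 (13.8 ± 2.53 TPM), and no neighbours in it overlapped.

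Within the ANKRD37 and UFSP2 pair the balance of counts reversed. As ANKRD37 was chosen for its rise, nothing is read from the direction of this change. ANKRD37 held 32.4%, 33.8% and 28.4% of the pair's counts in untreated libraries and 68.5%, 67.9% and 69.1% in r-CRMP2 libraries. The treated shares were nearly equal although the pair's counts differed between those libraries. The log2 ratio of ANKRD37 to UFSP2 counts, which does not depend on scaling, was -1.12 ± 0.19 untreated and 1.12 ± 0.04 treated (SD, n = 3 each), a difference of 2.24 (SE 0.11). Per length, ANKRD37 was 1.04 to 1.34 times UFSP2 in untreated and 5.56 to 5.89 times in treated libraries.

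The gains of these genes also kept a near-constant proportion. Above the untreated mean, r-CRMP2 replicates 1 to 3 gained 63.7, 98.9 and 81.7 CPM of ANKRD37. For UFSP2 the gains were 22.6, 40.1 and 29.7 CPM, which is 35.5%, 40.6% and 36.4% of those of ANKRD37 and 37.9% on the means. Which transcripts were used for counting is not known, so the shares of exonic bases given above are not set against the gains. The part that shared reads have in the UFSP2 gain was not tested, since the files hold no counts by position. Counted as 1 feature, the pair rose from 12.5 ± 1.80 to 124.7 ± 26.4 CPM (SD, n = 3 each), a log2 fold change of 3.32 (SE 0.21). This value does not depend on how reads were divided between both genes only if each shared read was counted once, which is not known.

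LOC100420062 took a small share of the counts of its pair, which was larger in r-CRMP2 libraries. As it was chosen for its rise, nothing is read from that direction. It held 0.0973%, 0.0178% and 0.0571% in untreated libraries and 0.543%, 0.714% and 0.771% in r-CRMP2 libraries. The log2 ratio of its counts to those of AP2B1 was -11.08 ± 1.25 untreated and -7.21 ± 0.27 treated (SD, n = 3 each), a difference of 3.86 (SE 0.74). Per length it stood at 0.00168 to 0.00919 of the AP2B1 level untreated and 0.0515 to 0.0733 treated. The summed pair rose from 449.5 to 640.0 CPM, a log2 fold change of 0.51 (SE 0.03) that is nearly that of AP2B1 alone.

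TMEM160, the gene whose coding sequence the pseudogene resembles, was not called in either direction. Its counts were 833, 711 and 868 untreated and 586, 686 and 609 treated. The mean was 30.2 ± 1.40 CPM untreated and 29.5 ± 4.47 CPM treated (SD, n = 3 each), with a log2 fold change of -0.04 (SE 0.13) and an adjusted p of 0.765 (edgeR quasi-likelihood test). LOC100420062 equalled 0.281% to 1.44% of TMEM160 counts in untreated libraries and 12.3% to 19.1% in r-CRMP2 libraries. As LOC100420062 was chosen for its rise and TMEM160 was not called, this ratio had to rise, and nothing is read from it. Whether reads of TMEM160 contribute to the counts of LOC100420062 was not tested. The other listed relative of the 4 genes was AP1B1, the beta subunit of the AP-1 adaptor, which aligned to AP2B1 over 479 bases at 81.4% identity. AP1B1 fell from 102.1 ± 2.89 to 82.3 ± 6.67 CPM (SD, n = 3 each), a log2 fold change of -0.31 (SE 0.07, edgeR adjusted p 0.000648), opposite to AP2B1. Processed pseudogenes AL359263.1 (93.4% identity over 2854 bases) and AL136455.1 (86.4% over 1313 bases) also resemble AP2B1, and no values under those names were used here.

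Inside AP2B1 there is a further gene on the opposite strand, ENSG00000267003.1. It had counts of 3, 3 and 2 untreated and 6, 3 and 1 treated and was below the low-count filter. These counts are too few to show a difference at this depth.

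Pseudogenes and genes that lie in introns, as LOC100420062 does, held more upward than downward calls with TMM scaling. Of the 369 other pseudogenes tested, 69 were up past both thresholds (18.7%) and 27 were down (7.32%), while of 12802 other coding genes 433 were up (3.38%) and 947 were down (7.40%). The share over all genes tested was 5.12% up and 8.86% down. This balance depends on the scaling: by library size alone 49 pseudogenes were up and 48 down, beside 489 genes up and 2553 down in all. Sense intronic transcripts, which lie in introns of another gene on its strand, were up in 35 and down in 3 of 103. The snoRNAs, small RNAs that guide RNA modification and mostly reside in introns, were up in 37 and down in 0 of 97, a count of 0 by edgeR and by DESeq2, with 1 down at an unadjusted p under 0.05. By library size alone these were 27 up and 10 down for sense intronic transcripts and 24 up and 1 down for snoRNAs. Long intergenic RNAs went the other way, with 32 up and 92 down of 406. A gene that passes the filter only through the group where it is high had to differ, and these counts include such genes. Among genes with a mean of at least 1 CPM over all 6 libraries, which also admits genes through 1 group and would keep LOC100420062, 32 of 198 pseudogenes, 13 of 46 sense intronic transcripts, 17 of 39 snoRNAs and 398 of 11999 coding genes were up. Requiring at least 10 counts in every sample left 25 pseudogenes up and 9 down, and that filter removed LOC100420062 itself.

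**Figure D3:**
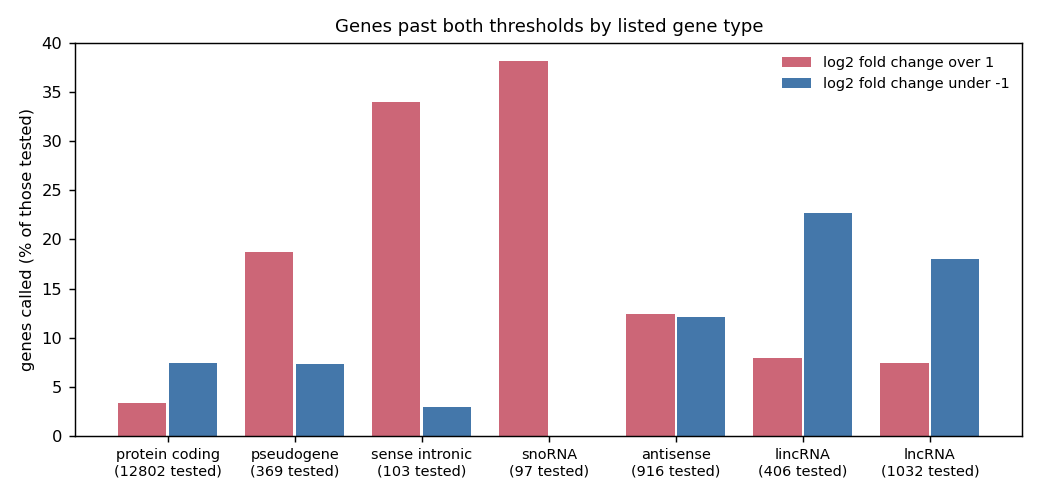
Percent of tested genes of each listed type called up (red, log2 fold change over 1) or down (blue, under -1) at an adjusted p under 0.05, without the 4 genes. Pseudogenes (18.7% up), sense intronic transcripts and snoRNAs had more calls up than down with TMM scaling, and coding genes had fewer (3.38% up, 7.40% down); by library size alone 49 pseudogenes were up and 48 down.

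Other pseudogenes placed like LOC100420062 are given for comparison, as counts with no test, and they too include genes that passed the filter through the treated libraries. Among tested genes there were 75 other cases of a pseudogene lying wholly inside a coding gene on the opposite strand. Of these pseudogenes 29 were up past both thresholds and 1 was down, against 2 up and 3 down among the entries for their host genes. With the same scaling the shares up and down were 18.7% and 7.32% for the 369 pseudogenes above, and 5.12% and 8.86% for all genes tested. By library size alone 24 of the nested pseudogenes were up and 3 down. The median log2 fold change was 0.66 for the pseudogenes and 0.02 for the hosts, beside -0.03 for all genes. The difference between the edgeR log2 fold changes of LOC100420062 and AP2B1, 3.52, was exceeded by 5 of the 75 cases. As LOC100420062 was chosen for its rise, a large difference was set by that choice, and nothing is read from this place. Whether reads from host introns contribute to these rows was not tested.

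Overlapping genes in which both members rise this much were few. Of 951 tested pairs whose 3′ ends overlap on opposite strands, 15 had both genes past both thresholds in the upward direction (1.58%), and ANKRD37 with UFSP2 is 1 of them. The gap of 2.23 between the log2 fold changes of ANKRD37 and UFSP2 was exceeded in 10 of those 951 pairs, whose median gap was 0.37. As this contrast chose ANKRD37 and UFSP2, nothing is read from their place among these pairs. Of all 4093 overlapping pairs, 65 had both genes past both thresholds upward (1.59%), a share like that of the 951. In 8 of the 4093, ANKRD37 with UFSP2 among them, both log2 fold changes were over 2. These included IER3, a stress response gene, with ENSG00000272273.1 (3.07 and 2.91), and VEGFA, the vascular growth factor, with ENSG00000272114.1 (2.35 and 2.10).

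Few genes on either side of the pairs were higher after r-CRMP2, all of them before ANKRD37, and those called around AP2B1 were lower. Of 20 tested neighbours, 5 on each side of each pair, 3 were higher and 9 lower with an adjusted p under 0.05 (edgeR quasi-likelihood test). With the same TMM scaling 28.2% and 30.1% of all genes tested were higher and lower. By library size alone 0 neighbours were higher and 12 lower, and the median log2 fold change of all genes moved to -0.34. Next to ANKRD37 and UFSP2, LRP2BP had a log2 fold change of 0.04 (SE 0.16, adjusted p 0.934) and C4orf47, whose span starts 3349 bases from that of UFSP2, had 0.19 (SE 0.44, adjusted p 0.675). SNX25, a sorting nexin, rose by 0.50 (SE 0.10, adjusted p 0.001). The other higher neighbours, CFAP97 (0.37) and SLC25A4 (0.49), also lay before ANKRD37. SORBS2, an adaptor of the actin cytoskeleton, fell by 0.92 on the log2 scale (SE 0.13, adjusted p 2.48e-08). Around AP2B1, MMP28, a metalloprotease, fell by 0.46 on the log2 scale (adjusted p 0.0374). LINC02001 had a log2 fold change of -0.21 (adjusted p 0.0639). Neighbours past both thresholds were all lower: ENSG00000233110.1 (-2.38), LOC729839 (-2.53), SLFN12 (-1.34) and RASL10B (-1.23).

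UFSP2 stood above the other genes of UFM1 conjugation, but this contrast chose it. The part that reads shared with ANKRD37 have in its counts was not tested. Of the 8 others, 4 were higher and 1 was lower (50.0% and 12.5%, beside 28.2% and 30.1% of all genes tested), and their median log2 fold change was 0.17. UFM1 itself rose from 28.5 ± 1.17 to 49.3 ± 3.72 CPM (SD, n = 3 each), a log2 fold change of 0.79 (SE 0.07, edgeR adjusted p 5.67e-08). CDK5RAP3, a partner of the UFM1 ligase, rose by 0.61 and the conjugating enzyme UFC1 by 0.28. The ligase UFL1, its partner DDRGK1 and ODR4, which holds UFSP2 at the endoplasmic reticulum, were not called. UFSP1, the other UFM1 protease, fell from 1.05 ± 0.327 to 0.252 ± 0.107 CPM (SD, n = 3 each), a log2 fold change of -2.04 (edgeR adjusted p 0.00072). By library size alone the list had 2 higher and 3 lower, and the median log2 fold change of all genes moved to -0.34.

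The other subunits of AP-2 moved in both directions and by little. The alpha subunit AP2A1 rose from 149.3 to 185.9 CPM, a log2 fold change of 0.32, and the alternative alpha subunit AP2A2 fell from 111.2 to 85.5 CPM, a log2 fold change of -0.38. AP2M1 and AP2S1, the mu and sigma subunits, had log2 fold changes of 0.09 and 0.15 and were not called. AP2B1, at 0.50, lay above these 4, though this contrast chose it. With TMM scaling 1 of the 4 was called higher and 1 lower, beside 28.2% and 30.1% of all genes tested. With so few genes, these calls are not read as particular to AP-2. None of the 4 was higher and 2 were lower by library size alone. Of 22 tested genes of the other adaptor complexes, 4 were higher and 11 lower (18.2% and 50.0%, beside 28.2% and 30.1% of all genes tested, and 3 and 18 by library size alone), with the largest falls in AP5M1 (-1.74), AP5S1 (-0.97) and AP4E1 (-0.88). Of 28 genes for clathrin and its endocytic partners, 9 were higher and 5 lower (32.1% and 17.9%, the former near the 28.2% of all genes tested), including ARRB1, a beta-arrestin (-1.44), DAB2, a cargo adaptor (-0.80), and DNM2, a dynamin (0.59). By library size alone 2 of these 28 were higher and 14 lower. The shares of all genes tested given here are by TMM scaling. Those by library size alone are not given, so the shift to lower calls is not read as particular to these lists.

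ANKRD37 rose together with most HIF-1 targets. Of 24 other tested targets, 23 were higher and 0 were lower by edgeR and by DESeq2 (0 lower also at an unadjusted p under 0.05), and 19 passed both thresholds upward, beside 28.2% higher, 30.1% lower and 5.12% past both thresholds upward among all genes tested, with a median log2 fold change of 1.42 beside -0.03 for all genes. Those with the largest rises were ADM, a vasodilator peptide, from 27.5 ± 3.08 to 356.4 ± 76.2 CPM (SD, n = 3 each, log2 fold change 3.70), HILPDA, a lipid droplet protein (2.88), and VEGFA (2.35). AK4, a mitochondrial adenylate kinase, had a log2 fold change of -0.01 (edgeR adjusted p 0.937) and was the target not called. ANKRD37, at 4.43, was above all 24, but it had been chosen for its rise. These targets were listed with earlier results of these data known, so that their count is not independent evidence of a direction.

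**Figure D4:**
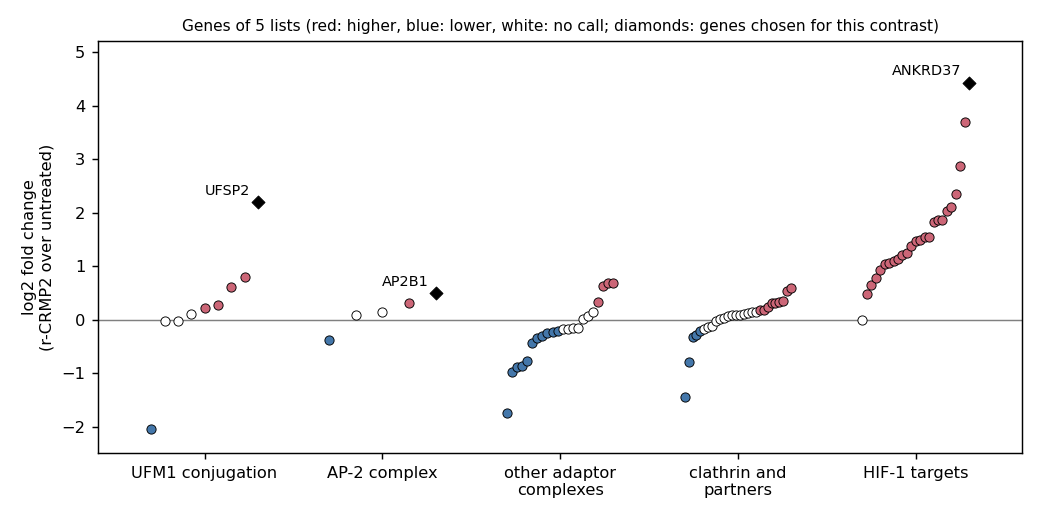
Log2 fold change (r-CRMP2 over untreated) of each tested gene in 5 lists, in red where higher, blue where lower and white where not called at an adjusted p of 0.05, with ANKRD37, UFSP2 and AP2B1 as black diamonds. UFSP2 and AP2B1 lie above the other genes of their lists, though this contrast chose them, and 23 of 24 other HIF-1 targets are red.

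The genes whose pattern over the 6 libraries lay closest to each of the 4 were found by the Euclidean distance of log2 CPM centred on each gene's mean. Nearest to ANKRD37 were LRP1-AS (0.47), LOC100129617 (0.58) and ADM (0.93). Nearest to UFSP2 were HEY1, a transcriptional repressor (0.25), CXCL8, a chemokine (0.26), and NFIL3, a transcription factor (0.29). Those nearest to LOC100420062 were MEIS1-AS2 (0.91), MIR6075 (0.95) and RPL29P14 (1.25), and those nearest to AP2B1 were TRPC4AP (0.021), BAG3 (0.032) and ESYT2 (0.047). This distance is set mainly by the size of the log2 fold change, so that a pair with unlike fold changes lies far apart: the distance from ANKRD37 to UFSP2 was 2.74 and that from LOC100420062 to AP2B1 was 4.27.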

How the data were processed

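Polyadenylated RNA of 6 A2780 libraries was sequenced. Per the labels, the submitters' processing notes name FastQC, HISAT2, DESeq2 and the hg19 build. The counting tool, the annotation and the handling of shared reads are not given in the sources used here. The authors deposited raw counts per gene for each library, with TPM values that differed by at most 4.72e-06 from those computed from the counts and listed lengths. After TMM scaling and a low-count filter (filterByExpr), which left 16222 genes, the counts were tested by quasi-likelihood in edgeR 4.0.16 under R 4.3.3. Thresholds were an adjusted p of 0.05 (Benjamini-Hochberg over all genes tested) and a log2 fold change of 1. Standard errors of log2 fold changes come from log2 CPM with a prior count of 2. The within-pair log2 ratios and their standard errors come from raw counts with no prior count, so their differences are not those of the edgeR log2 fold changes. Sequence relatives were found with blastn 2.17.0 (at least 100 bases at 80% identity). Gene positions on GRCh38 come from GENCODE and RefSeq and were not converted from hg19.

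The 4 genes and the lists were chosen with earlier results of these data known. Named were the 4 genes, all UFM1 and AP-2 genes, at most 3 genes of each other list with the largest changes, near neighbours, overlapping genes, sequence relatives and the 3 most alike genes. A few of these are left out of the text. The overlapping pairs with both genes over 2 and the gene type and nested pseudogene comparisons were picked after their values were seen, as was the scaling tried on the latter. Same-numbered replicates did not deviate together (correlations of -0.0209, 0.0038 and -0.0252), so the numbers were not taken as pairs. Alternatives were RLE size factors, library size alone, DESeq2 (1.42.0), other count filters, another prior count, the replicate number as a block, each library left out in turn, other thresholds, and each pair counted as 1 feature.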

Additional observations from a re-analysis of the deposited data

How the results depend on the processing

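Under the alternatives run, no log2 fold change of the 4 genes, of the summed pairs or of the within-pair ratios changed sign. Of all values recomputed, most of them counts, which have no sign, 302 stayed within the spread between replicates or within 1.5 times the count, and 55 moved further. The balance of higher against lower calls turned by library size alone for the UFM1 and clathrin genes. By library size alone, the log2 fold change was 4.12 for ANKRD37, 1.89 for UFSP2, 0.19 for AP2B1, 3.00 for the first pair summed and 0.20 for the second. Calls by library size alone were 2 higher and 3 lower for UFM1 genes, 0 and 2 for AP-2 genes, 2 and 14 for clathrin genes, 18 lower for other adaptors, 1 lower for HIF-1 targets and 0 higher for neighbours, with 489 genes up and 2553 down in all, 49 pseudogenes up and 48 down, 10 sense intronic transcripts down, 24 snoRNAs up and 1 down, and, of pseudogenes inside a coding gene, 24 up and 3 down. That setting uses no correction for the share of counts taken by abundant genes, and it moved the median log2 fold change of all genes from -0.03 to -0.34. Counted as 1 feature by construction, ANKRD37 and UFSP2 both stood at 3.32 and LOC100420062 at 0.51. With at least 10 counts in every sample, which tests fewer genes, LOC100420062 could not be fitted, no UFM1 gene was lower (0, as UFSP1 was dropped), 946 genes were down, 25 pseudogenes were up and 9 down, 13 sense intronic transcripts were up and 1 down, and 19 snoRNAs were up. With no filter, 114 pseudogenes were up and 45 down, 56 sense intronic transcripts were up and 1 snoRNA was down. RLE size factors gave 2 AP-2 genes higher. The cause was not tested. With a log2 fold change over 1 required, calls higher were 0 for UFM1, AP-2, other adaptor, clathrin and neighbour genes, and calls lower were 0 for AP-2 genes, 1 for other adaptors, 1 for clathrin genes and 4 for neighbours. With the adjusted p alone, 4574 genes were up and 4875 down.

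Leaving out each library in turn gave 4.29 to 4.59 for ANKRD37, 2.03 to 2.35 for UFSP2, 3.64 to 4.61 for LOC100420062, 0.49 to 0.53 for AP2B1 and 0.50 to 0.54 for LOC100420062 with AP2B1 summed. AP-2 genes higher ranged from 1 to 2 (2 without r-CRMP2 replicate 1), sense intronic transcripts down from 3 to 7 (7 without r-CRMP2 replicate 1, 5 without r-CRMP2 replicate 2, untreated replicate 1 or untreated replicate 3) and snoRNAs down from 0 to 1 (1 without r-CRMP2 replicate 2). With a replicate block in the fit, log2 fold changes were 4.41, 2.18, 4.01 and 0.50 for ANKRD37, UFSP2, LOC100420062 and AP2B1, 819 genes were up and 1437 down, and no list gained or lost more than 1 call. Depth limits LOC100420062, whose untreated libraries held 2 to 12 counts.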
